A study of Mus musculus with 8 samples.

Results

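The histone genes described here are the canonical genes, whose older symbols start with Hist1h, Hist2h, Hist3h or Hist4h, and the variant genes, whose older symbols start with H2af, H3f or H1f. The platform annotation now lists most of them under newer symbols, so the prefixes were matched to the platform symbol and to the RefSeq synonyms of the same gene. This gave 72 of 25697 probes, 60 for 55 canonical genes and 12 for 10 variant genes. The newer platform symbols alone would have given 13 probes and no Hist symbol. Newer symbols are used below, with the older one at first mention.

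The cells were primary vascular smooth muscle cells, from carotid arteries of male C57bl6-background mice. Per the labels all came from PMCA4 knockouts (PMCA4 is a plasma membrane calcium pump); 4 arrays were of knockout cells, and 4 were of knockout cells electroporated with cDNA of PMCA4a, called rescued here. Both populations were serum synchronized, then stimulated by PDGF-BB together with serum, and carry the label late G1/S. The labels mention electroporation for the rescued cells alone and do not say whether the knockout cells were mock-electroporated, so a part of electroporation itself in the differences was not tested. The labels give no animal age and do not say whether replicates were separate cultures, so each p-value reflects the spread among these 8 samples alone, and that spread may be technical.

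Histones package DNA into nucleosomes, each built from H2A, H2B, H3 and H4, with H1 bound to the linker. Canonical histone genes lie in clusters, are transcribed in S phase, and mostly give mRNAs that end in a stem-loop without a poly(A) tail. Variant histone genes are mostly expressed through the cycle from polyadenylated mRNAs. The labelling kit is of the kind that primes from poly(A), so the share of each canonical mRNA pool that these probes sampled was not tested.

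Between 12223 and 12427 probes were detected (detection p under 0.05) on the knockout arrays and between 12640 and 12873 on the rescued arrays, with median intensities from 108 to 118. Of 3 probes of Atp2b4, the gene of PMCA4, 2 were not detected on any array. The third read 5.25, 5.73, 5.69 and 5.47 on the rescued and 5.82, 5.58, 5.34 and 5.31 on the knockout arrays, with overlapping groups and a difference of 0.02 (adjusted p = 0.911). Where these probes lie relative to the cDNA and the deletion was not examined here, which leaves the labels unchecked by this gene, and rescued and knockout below mean the arrays labelled so. Of 10 smooth muscle markers 7 were kept, 2 higher and 3 lower, with Acta2 and Tagln detected on all 8 arrays, Cnn1 and Lmod1 on none and Myh11 on 1. Their summed level ran from 61323 to 68700 units of normalized intensity on rescued and from 68251 to 73233 on knockout arrays. Of other cell types, 2 of 7 endothelial markers were kept (Pecam1, Cdh5, Tie1 and Emcn undetected; sums 225 to 279 rescued, 212 to 230 knockout) and 2 of 5 macrophage and leukocyte markers (Ptprc, Adgre1 and Itgam undetected; 510 to 561 and 260 to 300.3). Of 6 adventitial markers 5 were kept (Lum undetected; 2250 to 15610 and 6417 to 7488, the highest on rescued array 3), and of 5 cartilage markers 2 were kept (Acan, Matn1 and Comp undetected; 1005 to 5419 and 460 to 486, the highest on rescued array 1). The part of other cell types in the histone differences was not tested.

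Most measured canonical H2A and H4 probes and several variant probes had higher signal in rescued cells, and no canonical H2B probe passed as higher. Of the 72 histone probes 48 passed the filter (detected on at least 4 of 8 arrays), 23 of them were higher in rescued cells and 4 lower at an adjusted p under 0.05. Among all 12658 probes tested 20% were higher and 18.7% lower, and 38.8% changed in either direction. The 39 canonical probes held 17 higher and 4 lower, with a median log2 difference (rescued minus knockout, as throughout) of 0.22. The 9 variant probes held 6 higher and 0 lower, with a median of 0.32; the median over all tested probes was 0.00359. The groups did not overlap at 27 of the 48 probes, against 38.8% of all tested probes; rescued lay above at 22 (20.1% of all) and below at 5 (18.7% of all).

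**Figure D1:**
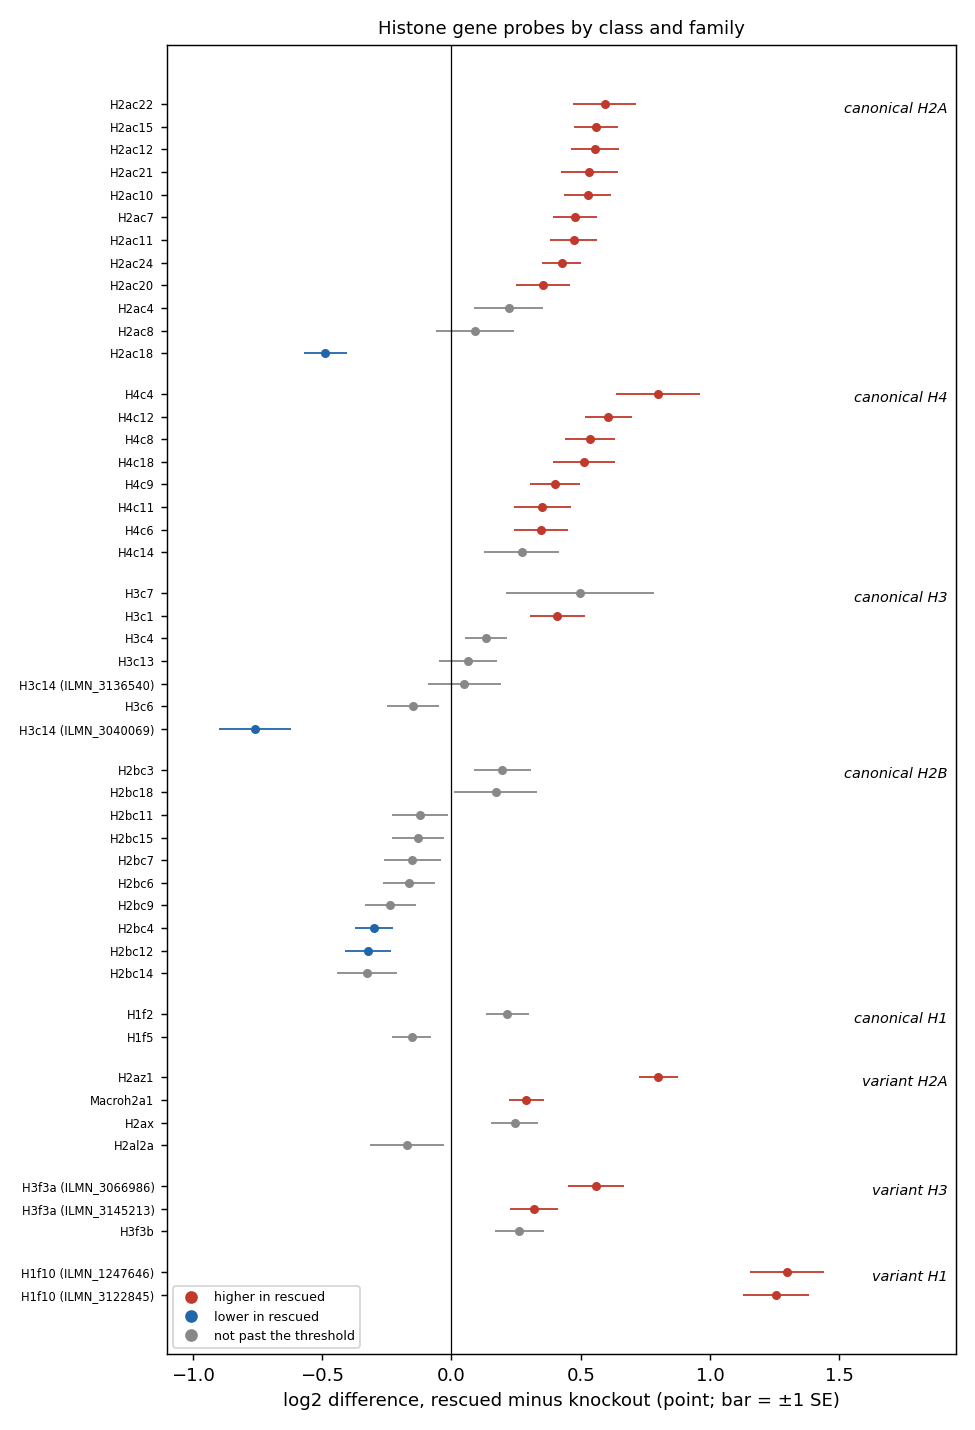
Log2 difference of each kept histone probe, rescued minus knockout (x axis, log2 units; bars are 1 SE), grouped by class and family; red marks probes higher and blue probes lower in rescued cells at an adjusted p under 0.05. Of 12 canonical H2A probes 9 are red, of 8 canonical H4 probes 7, and of 10 canonical H2B probes none.

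Canonical histone transcripts mark S phase, and other S phase genes differed in the same comparison. Of 18 measured S phase genes (replication licensing, DNA synthesis and nucleotide supply) 17 rose and 0 fell, against 20% and 18.7% of all tested probes. Their differences ran from -0.00315 to 1.06, with a median of 0.70. Whether both groups stood at the same point of the cycle at harvest was not tested.

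Canonical H2A genes gave the most calls of any family. H2A forms the dimer with H2B on each face of the nucleosome. Of 12 probes kept, 1 per gene, 9 were higher and 1 lower, against 20% and 18.7% of all tested probes. The median was 0.47 (1.39-fold). The largest differences were those of H2ac22 (Hist1h2an; 0.59 ± 0.12, SE), H2ac15 (Hist1h2ak; 0.56 ± 0.086) and H2ac12 (Hist1h2ah; 0.55 ± 0.094), all in the large cluster on chromosome 13.

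H2ac15 read 13.93, 14.06, 14.28 and 14.08 on rescued arrays 1 to 4 and 13.59, 13.51, 13.43 and 13.58 on knockout arrays 1 to 4 (normalized log2 intensity; adjusted p = 0.000899). H2ac12 read 13.66, 13.90, 14.00 and 13.87 on the rescued arrays and 13.41, 13.15, 13.26 and 13.39 on the knockout arrays (adjusted p = 0.00157). H2ac10 (Hist1h2af) read 13.90, 13.97, 14.27 and 14.11 against 13.61, 13.44, 13.56 and 13.52 (adjusted p = 0.00171). In all of these the rescued arrays stood above the knockout arrays with no overlap, and rescued array 3 was the highest. H2ac7 (Hist1h2ad) read 13.90, 14.17, 14.25 and 14.08 against 13.62, 13.56, 13.62 and 13.69 (adjusted p = 0.00198). H2ac22 read 13.05, 13.13, 13.49 and 12.94 against 12.49, 12.43, 12.59 and 12.73 (adjusted p = 0.00435). H2ac11 (Hist1h2ag) read 10.64, 10.76, 10.98 and 10.66 against 10.27, 10.20, 10.28 and 10.39 (adjusted p = 0.0028). Again no rescued array fell to the knockout range. These genes encode nearly the same protein, and probe sequences were not used here, so signal from near-identical copies may be shared between probes.

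H2ac24 (Hist1h2ap) read 15.55, 15.66, 15.76 and 15.70 on the rescued and 15.24, 15.12, 15.29 and 15.31 on the knockout arrays (difference 0.43, adjusted p = 0.00184). Its unnormalized intensity reached 57064, while the brightest probe of each array read 61011 to 65109. Whether its difference was compressed near that limit was not tested. H2ac20 (Hist2h2ac), with intensities up to 53698, rose from 15.07 ± 0.11 to 15.43 ± 0.19 (SD, n = 4 each; adjusted p = 0.0224). That call was lost without rescued replicate 4 (adjusted p = 0.0553), knockout replicate 2 (0.0639) or knockout replicate 4 (0.0523).

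On chromosome 3, where the smaller cluster lies, neighbouring H2A genes moved in opposite directions. H2ac20 and its close neighbour H2ac21 (Hist2h2ab; 9.38 ± 0.13 to 9.92 ± 0.21, difference 0.53, adjusted p = 0.00471) rose. H2ac18 (Hist2h2aa1) fell: it read 9.71, 9.64, 9.42 and 9.49 on the rescued and 10.11, 10.05, 10.10 and 9.95 on the knockout arrays (difference -0.49 ± 0.083 SE, adjusted p = 0.00153). Its groups did not overlap, and rescued array 3, the highest for the rising H2A genes, was here the lowest. The 591 other tested probes on chromosome 3 had a median difference of -0.18, with 9.31% higher and 34.9% lower; with each chromosome centred, H2ac18 fell by 0.30 (adjusted p = 0.014), H2ac21 rose by 0.73 and H2ac20 by 0.55. The remaining tested H2A genes, H2ac4 (Hist1h2ab; 5.70 ± 0.27 rescued, 5.48 ± 0.14 knockout) and H2ac8 (Hist1h2ae; 5.92 ± 0.25, 5.83 ± 0.24), were dim and did not pass (adjusted p = 0.221 and 0.676). H2ac1 (Hist1h2aa), H2ac6 (Hist1h2ac) and H2aw (Hist3h2a) were not detected on any array.

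Canonical H4 genes rose nearly throughout. H4 pairs with H3 at the core of the nucleosome, and its genes encode the same protein. Of 8 probes kept, 7 were higher and 0 lower, against 20% and 18.7% of all tested probes. The median was 0.46 (1.37-fold), and all 8 differences were positive. Of these 8 probes, 1 passed the filter through the rescued arrays, with 4 rescued arrays and 1 knockout array detected. H4c12 (Hist1h4k) read 7.04, 7.14, 7.20 and 6.99 on the rescued and 6.67, 6.47, 6.31 and 6.50 on the knockout arrays (difference 0.61, adjusted p = 0.000744). H4c8 (Hist1h4h) read 8.36, 8.54, 8.22 and 8.38 against 8.06, 7.83, 7.75 and 7.72 (0.53, adjusted p = 0.00227). H4c4 (Hist1h4d) read 6.22, 6.26, 6.81 and 6.11 against 5.66, 5.22, 5.67 and 5.65 (0.80, adjusted p = 0.00414), the last with 3 knockout arrays detected. None of these had overlapping groups.

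H4c18 (Hist1h4n) rose by 0.51 and H4c9 (Hist1h4i) by 0.40 (adjusted p = 0.00847 and 0.00939), also without overlap. H4c6 (Hist1h4f; 8.02 ± 0.14 rescued, 7.68 ± 0.17 knockout, 0.35, adjusted p = 0.0267) and H4c11 (Hist1h4j; 8.19 ± 0.22, 7.83 ± 0.09, 0.35, adjusted p = 0.0325) rose with groups that overlapped. Their calls were the least firm. H4c6 was lost without rescued replicate 1 (adjusted p = 0.0689), 2 (0.0517) or 3 (0.0522) or knockout replicate 2 (0.0563) or 3 (0.0658). H4c11 was lost without rescued replicate 1 (0.0838), 2 (0.0814) or 4 (0.056) or knockout replicate 1 (0.0799), 3 (0.0834) or 4 (0.0503). With no detection filter, 6 of the 8 H4 probes were higher, against 7 in the main test. H4c14 (Hist2h4), dim and detected on 1 knockout array, differed by 0.27 (adjusted p = 0.169), and passed with each chromosome centred (0.46, adjusted p = 0.0244). H4f16 (Hist4h4) was not detected on any array.

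No canonical H2B probe passed as higher. Of 10 probes kept, 0 were higher and 2 lower, with a median of -0.16. The 20% called compares with 38.8% of all tested probes. By direction, 20% of all tested probes were higher and 18.7% lower. The counts among these 10 probes were not tested against those shares. Over the alternatives the median stayed below 0, from -0.23 to -0.07. H2bc4 (Hist1h2bc) averaged 11.13 ± 0.10 on the rescued arrays against 11.43 ± 0.07 on the knockout arrays (SD, n = 4 per group), which is -0.30 (adjusted p = 0.0109). H2bc12 (Hist1h2bk) read 9.61 ± 0.15 and 9.93 ± 0.07, a difference of -0.32 (adjusted p = 0.017). In both, every rescued array lay below every knockout array. Both calls ended with each chromosome centred, at -0.21 (adjusted p = 0.0608) and -0.23 (0.0799), so that 0 H2B probes then passed. Both genes lie on chromosome 13. The 364 other tested probes there had a median difference of -0.0144, with 17.9% higher and 18.4% lower. Centring equalized the median level of a chromosome's probes across arrays, not the median difference. It moved the H2B median from -0.16 to -0.07, by more than that -0.0144. Whether the lost calls reflect a shift of the chromosome's other probes was not tested. Without rescued replicate 1, 4 H2B probes were lower, H2bc14 and H2bc9 being added; 4 were also lower without background correction and with a trended variance model.

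Of the 8 H2B probes that did not pass, 6 had negative differences. H2bc14 (Hist1h2bm) stood at 9.21 ± 0.21 and 9.54 ± 0.14 (-0.33, adjusted p = 0.0505), and H2bc9 (Hist1h2bh) at 10.15 ± 0.17 and 10.38 ± 0.10 (-0.24, adjusted p = 0.0862). H2bc6 (Hist1h2be; 6.34 ± 0.13 and 6.50 ± 0.16), H2bc7 (Hist1h2bf; 11.02 ± 0.21 and 11.18 ± 0.10), H2bc15 (Hist1h2bn; 9.11 ± 0.15 and 9.24 ± 0.13) and H2bc11 (Hist1h2bj; 10.84 ± 0.22 and 10.96 ± 0.07) differed by -0.16, -0.15, -0.13 and -0.12, with overlapping groups. The dim H2bc3 (Hist1h2bb; 5.28 ± 0.19 and 5.08 ± 0.15) and H2bc18 (Hist2h2bb; 5.96 ± 0.12 and 5.79 ± 0.36) differed by 0.20 and 0.17, and H2bc18 passed without knockout replicate 2 (0.34, adjusted p = 0.0293). H2bc1 (Hist1h2ba), H2bc8 (Hist1h2bg), H2bu2 (Hist3h2ba), H2bu1-ps (Hist3h2bb) and a second probe of H2bc4 were not detected on any array.

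**Figure D2:**
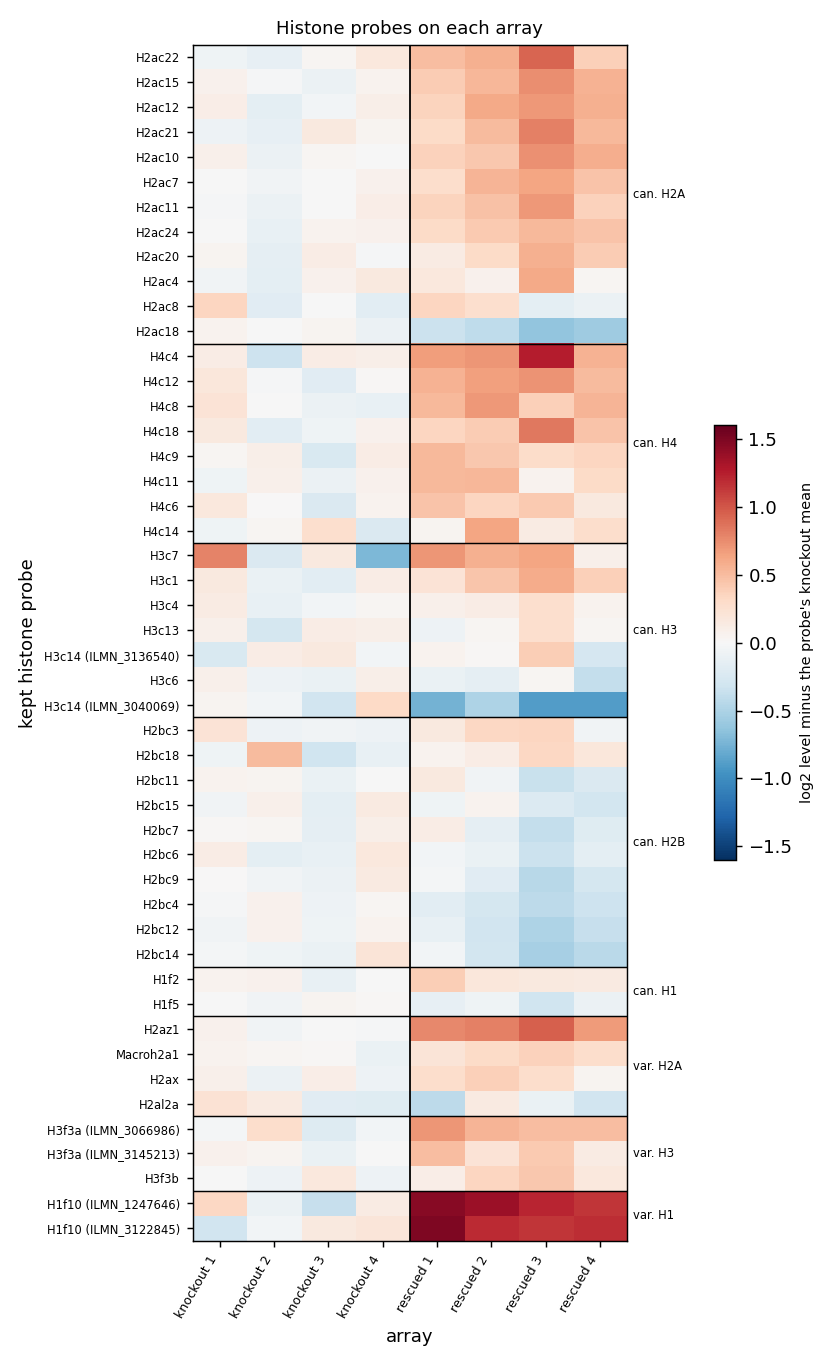
Log2 level of each kept histone probe (rows, by class and family) on each array (columns) minus that probe's mean over the knockout arrays; red is above and blue below it. Rescued array 3 is the highest of the rescued arrays for all 9 canonical H2A probes that rose and the lowest for 7 of the 8 H2B probes with a negative difference. These probes were picked by the direction of their own difference, to which that array contributes.

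The rescued arrays also differed among themselves, which is given as a description with no test. Averaged over the 12 H2A probes, rescued arrays 1 to 4 stood 0.26, 0.36, 0.51 and 0.31 above the knockout mean on the log2 scale. Averaged over the 10 H2B probes, they stood at -0.00041, -0.09, -0.25 and -0.22. Rescued array 3 was the highest for 9 of the 9 rising H2A probes and the lowest for 7 of the 8 H2B probes with a negative difference. By contrast, rescued array 1 was the lowest for 8 of those H2A probes and the highest for 7 of those H2B probes. These probes were picked by the direction of their own difference, to which each array contributes. Over all 10 H2B probes, rescued array 3 was the lowest for 7 and the highest for 2. Rescued array 3 also stood apart in adventitial markers: Dcn read 13.35 there against 10.15 to 11.05 on the other rescued arrays, and Dpt 12.05 against 8.97 to 10.07. Rescued array 1 had the highest level of the cartilage marker Col2a1, 12.24 against 9.13 to 11.07. The part of these cells in the order of the arrays was not tested. The H4 average, 0.45, 0.55, 0.51 and 0.39, did not follow that order. Without rescued replicate 3, 9 H2A probes were again higher and 1 lower, and 0 H2B probes were higher and 2 lower.

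Many canonical H2A and H2B genes lie head to head and share the stretch between their start sites, so the probes of both partners can be set side by side within an array. RefSeq promoters were found for 59 of the 65 histone genes (build GRCm38.p6), and among these 6 such pairs were found, all on chromosome 13. Both partners were measured in 4 pairs, whose shared stretches are printed because the same sequence lies before a gene whose probe rose and one whose probe did not pass as higher. Each is written 5′ to 3′ on the strand of the H2A gene, from next to the H2B start to next to the H2A start. Capitals mark the box written CCAAT, the TATA box written TATAA, the octamer known from H2B promoters (ATTTGCAT) and an E2F-type motif (TTTNGCGC), each searched on both strands.
H2ac12/H2bc12, chr13:22035644-22035820, minus strand: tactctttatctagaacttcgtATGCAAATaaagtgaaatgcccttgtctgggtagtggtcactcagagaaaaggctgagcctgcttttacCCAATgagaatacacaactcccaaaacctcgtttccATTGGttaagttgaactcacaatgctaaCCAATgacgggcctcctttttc
H2ac15/H2bc15, chr13:21753913-21754075, minus strand: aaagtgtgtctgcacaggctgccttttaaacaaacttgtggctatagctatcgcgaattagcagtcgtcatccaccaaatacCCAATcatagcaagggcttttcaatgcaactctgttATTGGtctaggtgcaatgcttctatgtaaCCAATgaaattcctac
H2bc7/H2ac7, chr13:23574208-23574380, plus strand: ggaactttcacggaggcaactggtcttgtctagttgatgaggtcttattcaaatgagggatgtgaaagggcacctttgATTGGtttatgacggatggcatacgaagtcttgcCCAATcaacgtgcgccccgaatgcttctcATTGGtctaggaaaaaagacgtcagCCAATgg
H2ac11/H2bc11, chr13:22042950-22043197, minus strand: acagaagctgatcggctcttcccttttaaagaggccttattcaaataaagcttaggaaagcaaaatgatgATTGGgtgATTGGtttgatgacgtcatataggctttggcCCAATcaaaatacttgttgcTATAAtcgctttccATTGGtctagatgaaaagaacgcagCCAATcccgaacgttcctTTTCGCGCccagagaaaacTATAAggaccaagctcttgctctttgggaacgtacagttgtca

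The stretches are 163 to 248 bases long and hold 3 to 5 CCAAT boxes each; only that of H2ac12 and H2bc12 holds the octamer, and only that of H2ac11 and H2bc11 the E2F-type motif. In each pair the H2A probe rose and the H2B probe did not pass as higher. Probe sequences were not used here and the H2A copies are near-identical, so an H2A probe may also report copies outside its pair, and the ratios are those of the probes, not shown to be those of a shared promoter. H2ac12 rose by 0.55 while H2bc12 fell by 0.32, so their within-array ratio was 1.84-fold higher in rescued cells (log2 change 0.88). The ratio rose 1.61-fold for H2ac15 to H2bc15, 1.54-fold for H2ac7 to H2bc7 and 1.51-fold for H2ac11 to H2bc11 (log2 changes 0.69, 0.63 and 0.60). In all 4 pairs every rescued array had a higher ratio than every knockout array (exact permutation test, two-sided, p = 0.0286 each, adjusted 0.0286 over the 4 pairs, the smallest that 4 against 4 can give). This test was chosen with the single-gene values known. Each H2A probe already separated the groups and each H2B difference was negative. Full separation of the ratios was thus nearly set beforehand, and their p adds no separate support. The H2A probes may share signal, so the 4 pairs are not 4 independent tests. A probe's own response to signal differs between genes, so the size of the change in molecules is not shown.

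**Figure D3:**
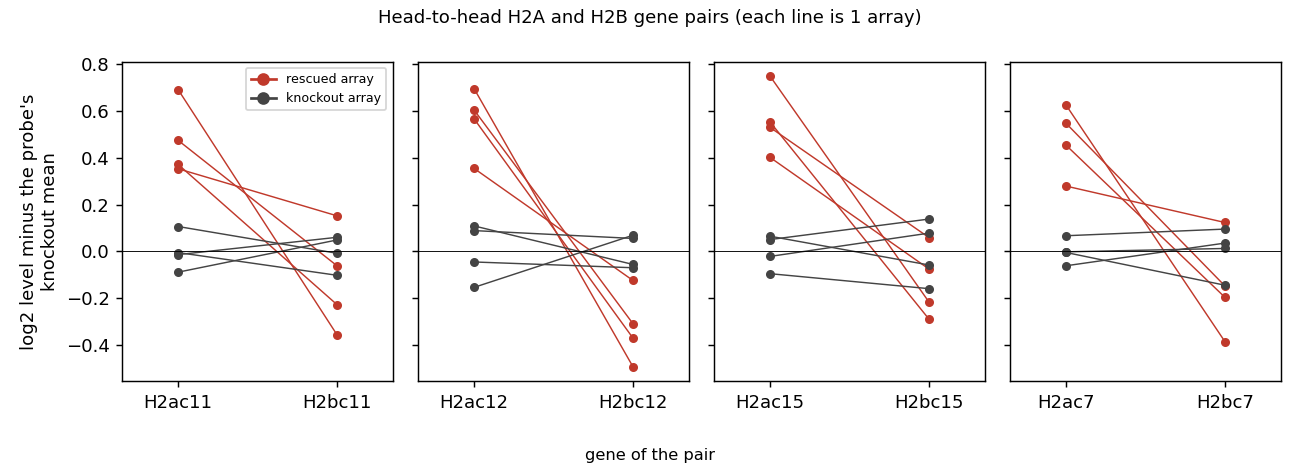
Log2 level of the H2A and the H2B gene of 4 head-to-head pairs on each array, minus that probe's knockout mean (y axis); each line joins both genes on 1 array, red for rescued and grey for knockout. The red lines fall from H2A to H2B in every pair, while the grey lines lie within 0.16 of 0.

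Over all canonical genes with a promoter in the table, the CCAAT motif stood within 250 bases upstream of the start site in 15 of 15 H2A, 12 of 12 H2B, 6 of 7 H3 and 6 of 6 H1 genes, but in 2 of 10 H4 genes; it stood in 33.8% of all 32851 promoters. The TATAA motif stood in 35 of 50 canonical and 1 of 9 variant promoters, against 22.8% of all. The octamer stood in 7 of 15 H2A and 7 of 12 H2B promoters and in none of the H1, H3 or H4 promoters of canonical genes, against 1.6% of all. The E2F-type motif stood in 4 H2A and 4 H2B promoters, against 1.13% of all. Windows of head-to-head partners overlap, so the same site can count for an H2A and an H2B gene. Sites of different motifs overlapped in 0 of the 59 promoters. The 150 bases before the start of H4c12 hold TATAA and no CCAAT and are printed beside the stretches above for that contrast.
H4c12, chr13:21750554-21750703, minus strand: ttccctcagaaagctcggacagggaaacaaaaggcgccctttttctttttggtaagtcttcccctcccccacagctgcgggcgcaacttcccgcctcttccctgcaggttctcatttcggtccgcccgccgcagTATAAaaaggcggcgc

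Canonical H3 probes passed in both directions. H3 carries the tail whose modifications mark active and silent chromatin. Of 7 probes kept, for 6 genes, 1 was higher, 1 lower and 5 did not pass (28.6% called, against 38.8% of all tested probes). The median of 0.07 changed sign under the alternatives, from -0.00468 to 0.24. H3c14 (Hist2h3c1), close to H2ac18 on chromosome 3, fell at 1 of its probes, which read 6.86, 7.12, 6.73 and 6.72 on the rescued and 7.66, 7.57, 7.31 and 7.94 on the knockout arrays (difference -0.76, adjusted p = 0.00244). Its groups did not overlap. Its other probe stood at 10.66 ± 0.27 and 10.61 ± 0.18 and differed by 0.05 (adjusted p = 0.811), so the probes of this gene disagree. H3c1 (Hist1h3a) rose from 6.94 ± 0.16 to 7.35 ± 0.16 (0.41, adjusted p = 0.0135).

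Of the H3 genes that did not pass, H3c7 (Hist1h3f) had the widest spread, at 6.04 ± 0.28 rescued and 5.54 ± 0.64 knockout with 2 knockout arrays detected (0.50, adjusted p = 0.201). It passed without knockout replicate 1 (0.76, adjusted p = 0.0275). H3c4 (Hist1h3d; 8.46 ± 0.09 and 8.32 ± 0.11), H3c6 (Hist1h3e; 8.62 ± 0.18 and 8.76 ± 0.11) and H3c13 (Hist2h3b; 10.88 ± 0.15 and 10.81 ± 0.19) differed by 0.13, -0.15 and 0.07. H3c3 (Hist1h3c), H3c10 (Hist1h3h) and 2 more probes of H3c7 were not detected on any array.

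Canonical linker histone genes H1f2 (Hist1h1c) and H1f5 (Hist1h1b) were the only H1 genes of this class kept. H1f2 averaged 12.30 ± 0.12 on the rescued and 12.09 ± 0.09 on the knockout arrays (0.22, adjusted p = 0.0638), and H1f5 at 6.11 ± 0.12 and 6.26 ± 0.04 (-0.15, adjusted p = 0.136). Neither passed, although in each the groups did not overlap, H1f2 with rescued above and H1f5 with rescued below. H1f2 passed with each chromosome centred (0.31, adjusted p = 0.0197), without background correction (0.21, adjusted p = 0.0302) and with a trended variance model (adjusted p = 0.0216). On its chromosome 13 the centring moved values by more than the median difference of the other probes there, -0.0144. H1f1 (Hist1h1a), H1f4 (Hist1h1e) and the testis gene H1f6 (Hist1h1t) were not detected on any array.

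Among the variants the replication-independent linker histone gene H1f10 (H1fx) rose most. Its first probe read 9.11, 8.81, 8.76 and 8.80 on the rescued and 7.31, 7.57, 7.77 and 7.81 on the knockout arrays, a 2.39-fold rise (log2 1.26 ± 0.13 SE, adjusted p = 7.59e-05). Its second probe read 7.77, 7.68, 7.52 and 7.46 against 6.63, 6.22, 5.94 and 6.44, a 2.46-fold rise (1.30 ± 0.14, adjusted p = 0.000133). Both probes separated the groups without overlap. The 622 other tested probes on chromosome 6 had a median of 0.11, with 30.7% higher, and with each chromosome centred the probes of H1f10 still rose by 1.13 and 1.18.

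H2az1 (H2afz), which encodes the variant H2A.Z placed at promoters, read 12.70, 12.74, 12.89 and 12.61 on the rescued and 12.01, 11.88, 11.93 and 11.92 on the knockout arrays. The rise was 1.74-fold (0.80 ± 0.076 SE, adjusted p = 5.12e-05), with the smallest p of all histone probes, and no array overlapped. It lies on chromosome 3, and with each chromosome centred it rose by 0.99. Macroh2a1 (H2afy), whose product carries a large macro domain and is known from silent chromatin, rose from 10.77 ± 0.07 to 11.06 ± 0.07 (0.29, adjusted p = 0.00878). H2ax (H2afx), whose product is phosphorylated around DNA breaks, stood at 9.99 ± 0.14 and 9.75 ± 0.10 (0.25, adjusted p = 0.0577), with overlapping groups. It passed without background correction (adjusted p = 0.0308), with a trended variance model (0.0286), with the stricter detection filters (0.0489 and 0.0495) and without rescued replicate 4 (0.31, adjusted p = 0.0192). H2al2a (H2afb1), a gene known from testis, was dim, at 5.43 ± 0.25 and 5.60 ± 0.22 (-0.17, adjusted p = 0.382).

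Both H3f3a and H3f3b encode the replacement H3 variant, which is placed in chromatin outside replication; H3f3a rose and H3f3b did not pass. The dimmer probe of H3f3a read 7.0, 6.83, 6.78 and 6.78 on the rescued and 6.26, 6.57, 6.08 and 6.24 on the knockout arrays (0.56, adjusted p = 0.003). The brighter probe of H3f3a rose from 12.02 ± 0.08 to 12.33 ± 0.17 (0.32, adjusted p = 0.0231). Neither had overlapping groups. On chromosome 1, where H3f3a lies, the 617 other tested probes had a median difference of 0.08, with 28.8% higher. Both probes of H3f3a dropped by more than that median when chromosomes were centred by median level. Centring each chromosome ended the brighter probe's call (0.17, adjusted p = 0.166) and left the dimmer at 0.41 (adjusted p = 0.0121); the brighter was also lost with median scaling (adjusted p = 0.059) and without rescued replicate 1 (0.057), knockout replicate 3 (0.0658) or knockout replicate 4 (0.0514). H3f3b stood at 13.27 ± 0.15 and 13.01 ± 0.12 (0.26, adjusted p = 0.0536). It passed without background correction (adjusted p = 0.024), with a trended variance model (0.0142), with the stricter detection filters (0.0454 and 0.0458), and without rescued replicate 1 (0.0382) or knockout replicate 3 (0.0361). H2aj (H2afj) and the germ cell linker genes H1f7 (H1fnt) and H1f8 (H1fo) were not detected on any array.

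The 150 bases before the start sites of the variant genes with the smallest p are shown for comparison with the canonical stretches. Neither holds TATAA, and that of H2az1 holds CCAAT on each strand.
H2az1, chr3:137864337-137864486, plus strand: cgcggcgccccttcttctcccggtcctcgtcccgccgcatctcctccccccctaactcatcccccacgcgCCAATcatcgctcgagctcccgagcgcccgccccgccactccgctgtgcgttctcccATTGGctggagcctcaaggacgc
H1f10, chr6:87981483-87981632, minus strand: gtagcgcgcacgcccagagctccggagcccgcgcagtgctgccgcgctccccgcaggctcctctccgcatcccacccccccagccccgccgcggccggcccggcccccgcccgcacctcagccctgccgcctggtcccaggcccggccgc

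Genes that make, carry or deposit histones were followed as a list of 47, of which 36 were on the array and 30 were tested. Of these 14 were higher, 1 lower and 15 did not pass, with a median of 0.25. Among all tested probes 20% were higher, 18.7% lower and 38.8% changed in either direction. Among chaperones of newly made H3 and H4, Asf1b rose from 7.86 ± 0.20 to 8.71 ± 0.08 (0.85, adjusted p = 0.000235), Asf1a by 0.68, and the CAF-1 subunits Chaf1b and Chaf1a, which place histones behind the replication fork, by 0.67 and 0.57 (adjusted p = 0.000496 and 0.000655). Nasp, a chaperone that keeps a reserve of H3 and H4, did not pass, at 10.09 ± 0.09 and 9.95 ± 0.02 (0.15, adjusted p = 0.113). Hat1, which acetylates new H4, rose from 13.08 ± 0.08 to 13.58 ± 0.11 (0.50, adjusted p = 0.000964). Hira, a chaperone of the replacement H3 variant, rose by 0.59 (adjusted p = 0.0015), while its other probe differed by 0.23. The centromeric H3 variant gene Cenpa rose by 1.31 and its chaperone gene Hjurp by 0.70 (adjusted p = 1.05e-05 and 0.000137). Mis18a, which prepares centromeres for Cenpa, rose by 0.40 (adjusted p = 0.0023), and Dek by 0.64 (adjusted p = 0.00203).

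Some genes of the list act in transcription or processing of histone mRNA. The probe of Slbp, which binds the stem-loop of histone mRNAs, and that of Casp8ap2 were not detected on any array. Lsm10, of the small nuclear particle that guides cleavage of these mRNAs, fell from 10.30 ± 0.10 to 10.02 ± 0.08 (-0.28, adjusted p = 0.0179). The lowest difference of the list was -0.29, and 3 of its genes had every rescued array below every knockout array. Lsm10 alone passed the threshold as lower. That call was lost with median scaling and without knockout replicate 1 or 2, when 0 genes of the list were lower. Cstf2, a subunit of the cleavage machinery, rose by 0.47 (adjusted p = 0.0189). Npat, a coactivator of histone gene transcription, was not analysed here. Asf1a and Cstf2 were named after their values were seen.

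**Figure D4:**
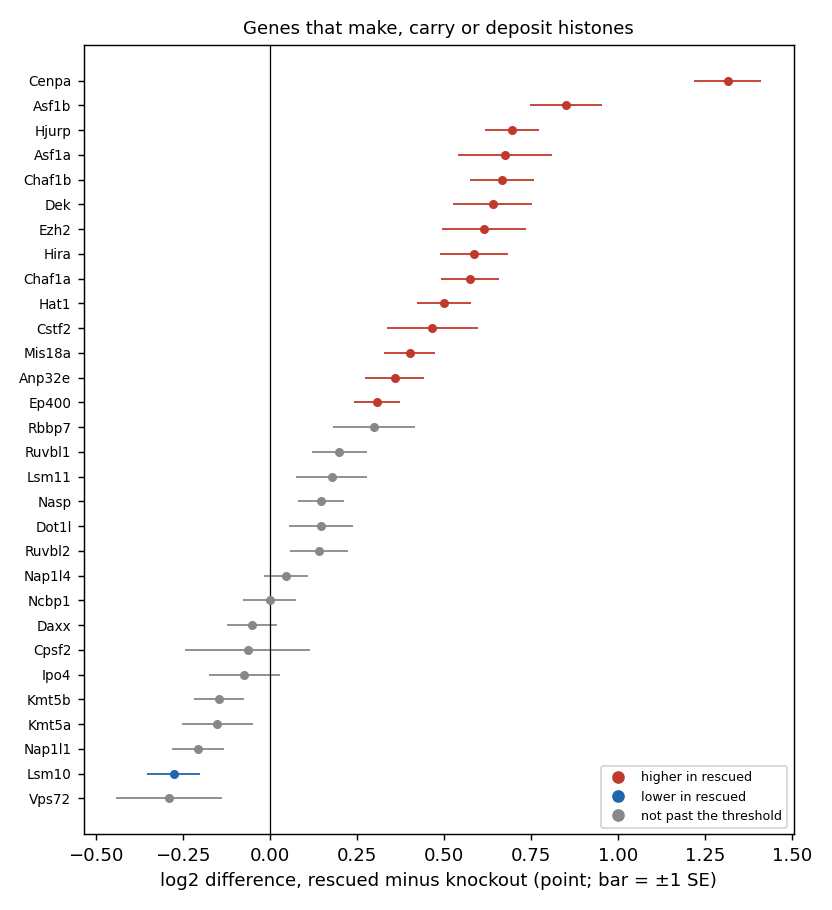
Log2 difference, rescued minus knockout (x axis; bars are 1 SE), of the 30 tested genes that make, carry or deposit histones; red marks genes higher and blue genes lower in rescued cells at an adjusted p under 0.05. Cenpa and Asf1b have the largest differences, and Lsm10 is the only blue point.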

How the data were processed

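The authors deposited an average bead intensity per probe, not normalized, and a detection p-value beside it, per the file headers; a second deposited table holds log2 values made by steps not given in the sources used here. Those log2 values differed from the ones computed here by at most 0.0266, with medians from 5.17 to 5.18, so they are on the same scale and in the same direction and were not centred.

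In limma 3.58.1 under R 4.3.3, neqc (offset 16) estimated the background by means of the detection p-values and then applied quantile normalization. The 12658 probes with a detection p under 0.05 on 4 or more of the 8 arrays were tested with lmFit and eBayes; p-values had a Benjamini-Hochberg adjustment across these probes, with calls at 0.05. Of 25697 probes 23962 matched a RefSeq gene by identifier. The test was tried on simulated data of 12658 probes for rescued against knockout, with 100 probes changed 1.5-fold and 100 changed 2-fold. Of these 71% and 88% were recovered, with 12 false calls. In the data 38.8% of probes were called, a far larger share than was changed there, so these rates may not carry over. Pair ratios used exact permutation tests in scipy 1.17.1. The number of arrays limits the precision.

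Every kept histone probe is named; values on all arrays are given for the 16 with the smallest p. Members, lists and tests were chosen with earlier results of these data known. Alternatives were other background corrections, normalizations, filters, variance models, array weights, a replicate block, the deposited values, a stricter threshold, chromosome centring, and each array left out. Chromosome centring made the median level of the tested probes of each chromosome equal across arrays. Arrays with the same replicate number did not deviate together (correlations -0.08 to -0.003), so the numbers were not taken to pair samples. Promoter sequences and chromosomes are from RefSeq (GRCm38.p6).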

Additional observations from a re-analysis of the deposited data

Results flagged for a closer look

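Within each group of 4 arrays, 48 histone probes and the means of both classes were checked for an array far from the other 3 by Dixon's test at its 95% critical value. This picked out 6 of 100 groups, and chance alone picks about 1 in 20. H1f2 read 12.48 on rescued array 1 against 12.22 to 12.27 on the others. H1f10 (first probe) read 9.11 on rescued array 1 against 8.76 to 8.81. H2bc3 read 5.31 on knockout array 1 against 5.0 to 5.02. On knockout array 2, H3c13 read 10.53 against 10.89 to 10.93, and H4c4 read 5.22 against 5.65 to 5.67. The mean of the variant probes was 9.68 on rescued array 4 against 9.82 to 9.84 on the other rescued arrays.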

How the results depend on the processing

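No called histone probe changed direction under the 20 alternatives. Apart from the stricter threshold there were 19 alternatives. Of the 27 called, 21 were called in the same direction under each of these in which they were tested. H4c4, detected on 7 arrays, was not tested when detection on all 8 was required. Of the 21 not called, 13 were called under none. The stricter threshold (adjusted p under 0.01) left 18 histone probes higher and 2 lower, the 2 lower being canonical, 0 supply genes lower, and 1559 and 1478 of all probes. With each chromosome centred 2 histone probes, both canonical, were lower. Of the supply genes, 2 were lower with no background correction, with both stricter detection filters and with the trended variance model, and 0 with median scaling. Leaving out each array in turn gave 20 to 23 histone probes higher and 4 to 6 lower (canonical 15 to 17 and 4 to 6, variant 5 to 7 and 0), 14 to 16 supply genes higher and 0 to 2 lower, and 2125 to 2594 and 2016 to 2462 of all probes. The replicate block gave 23 higher and 4 lower histone probes and 2135 and 2071 of all probes; it changed no call of a histone probe. The pair ratios, recomputed in settings chosen after seeing the data, rose by 0.45 to 1.01 on the log2 scale; with an array left out their exact p was 0.0571, the smallest that 3 against 4 can give here. Dim probes near background limit which histone genes could be measured.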

Other observations

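The 5 histone probes detected on some arrays but under the filter were all canonical. H3c8 (Hist1h3g) was detected on 2 rescued and 1 knockout array, at 5.32 ± 0.45 and 5.06 ± 0.16 (normalized log2 intensity, SD, n = 4 each). H4c2 (Hist1h4b) was detected on 1 rescued array (4.98 ± 0.26 and 4.62 ± 0.18), H4c3 (Hist1h4c) on 2 rescued arrays (5.14 ± 0.16 and 5.02 ± 0.11) and a second probe of H2bc18 on 2 rescued arrays (5.14 ± 0.19 and 5.07 ± 0.24). H1f3 (Hist1h1d) was detected on 1 array of each group (5.04 ± 0.29 and 5.05 ± 0.26). None of these was tested.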
